A study of Rattus norvegicus with 20 samples.

Results

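ENSRNOG00000026053 and ENSRNOG00000040287 are 2 of the 32623 Ensembl gene IDs counted in cultured rat neural stem cells. They were chosen by their own read counts: each stood higher in every library under a Wnt stimulus for 3 or 5 d without interruption than in every unstimulated library of 3 or 5 d. The order of those 9 libraries is therefore given as a description, with no test. The tests below use the 11 other libraries. Of 19006 IDs with a read in the 9 libraries, 208 had the same order, which is 1.09%, so the order itself is shared with many other IDs, and these 2 were taken from that list with the size of their differences known. The reverse order was seen for 151 of the 19006 IDs, 0.794%. No symbol could be matched to either ID, so no gene name, function or sequence is given for them.

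The cells were hippocampal neural stem cells of adult Fisher 344 rats, placed for the experiment in a basal medium with N-2 supplement and 0.5% FBS. Stimulated cells all carried optoWnt, a light-responsive construct delivered by transduction and kept by puromycin selection. Per the labels they received CHIR99021 (dose written as 3 mM), Wnt3a at 100 ng/mL, or light from LED arrays. The profiles were 1 d ON, 3 d ON, 1 d ON followed by 1 d OFF and 1 d ON followed by 2 d OFF, with 1 library for each of the 3 inducers, and 5 d ON, with 1 library each for CHIR99021 and Wnt3a and none for light. Unstimulated cells were sequenced at 0, 3 and 5 d, as 1 optoWnt and 1 wild-type library each. The 3 and 5 d titles of these baselines also carry the word ON. The labels used here do not say whether light reached them, and an illuminated optoWnt baseline would not be an unstimulated one.

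In the canonical Wnt pathway, a complex that includes the kinase GSK3 and the scaffold Axin marks β-catenin for destruction while no ligand is present. Wnt3a binds Frizzled receptors and their LRP co-receptors and stops that destruction, and CHIR99021 inhibits the kinase directly. optoWnt is described by the study as a light-driven way into the same pathway. Stabilised β-catenin enters the nucleus, joins TCF and LEF factors on DNA and raises transcription of target genes. In the adult hippocampus the pathway is known for its part in the division and neuronal differentiation of stem cells.

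Libraries were made from the 3′ ends of messenger RNA, and levels are given as CPM, the reads of a gene per 1000000 reads of its library. Totals ran from 696463 reads (Wnt3a, 1 d ON) to 5935681 (optoWnt, unstimulated 3 d), so that 3 reads correspond to 4.31 and 0.505 CPM there. Intervals on single libraries are exact 95% Poisson intervals, cover counting error alone and say nothing about variation between cultures. Each profile was sequenced once per inducer or genotype. On the first principal component of all 20 libraries (29.4% of the variance), 6 stood apart from the other 14, with scores of -41.5 or less against 8.9 or more. The 6 were Wnt3a 5 d ON, light 3 d ON, the CHIR99021 and Wnt3a libraries of 1 d ON 2 d OFF, and wild-type unstimulated cells at 0 and 5 d. Fewer cells that express a gene and less of its RNA in each cell cannot be told apart in these bulk samples.

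Under sustained stimulation, ENSRNOG00000026053 stood at 121 and 232 CPM after 3 and 5 d of CHIR99021, at 41.7 and 134 CPM after 3 and 5 d of Wnt3a, and at 35.5 CPM after 3 d of light. The 4 unstimulated libraries of those days had 0.674 and 2.08 CPM at 3 d (optoWnt, wild-type) and 3.37 and 3.88 CPM at 5 d. The lowest stimulated library, light at 3 d, was thus 9.16-fold above the highest unstimulated one, wild-type at 5 d. Means were 113 ± 80.1 CPM (SD, n = 5) in stimulated and 2.5 ± 1.43 CPM (SD, n = 4) in unstimulated libraries, a ratio of 45.1. In both inducers sequenced on both days, the 5 d level was above the 3 d level, by 1.91-fold under CHIR99021 (counting interval 1.72 to 2.13) and 3.22-fold under Wnt3a (2.71 to 3.84).

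ENSRNOG00000040287 stood at 211 and 112 CPM after 3 and 5 d of CHIR99021, at 30.0 and 37.5 CPM after 3 and 5 d of Wnt3a, and at 9.09 CPM after 3 d of light. Unstimulated libraries had 0.842 and 1.82 CPM at 3 d (optoWnt, wild-type) and 1.04 and 5.33 CPM at 5 d. This gene met the choice by less: light at 3 d, with 22 reads and an interval of 5.69 to 13.8 CPM, was 1.7-fold above wild-type at 5 d, with 11 reads and an interval of 2.66 to 9.54 CPM. Those intervals overlap, so its place above all baselines under light rests on few reads in 1 library. Against the 2 unstimulated libraries of the same day, light was 7.41-fold higher (counting interval 3.51 to 16.4). Means were 79.8 ± 82.7 CPM (SD, n = 5) in stimulated and 2.26 ± 2.09 CPM (SD, n = 4) in unstimulated libraries, a ratio of 35.3. Unlike the other gene, it was lower at 5 d than at 3 d of CHIR99021, at 0.531 times the level (0.472 to 0.596), and under Wnt3a the 5 d level was 1.25 times the 3 d level, with an interval that holds 1 (0.962 to 1.62).

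Of the 9 libraries behind the choice, 3 are among those that stood apart: light 3 d ON, Wnt3a 5 d ON and wild-type 5 d. Without these 3, the lowest stimulated and the highest unstimulated levels were 41.7 and 3.37 CPM for ENSRNOG00000026053 and 30.0 and 1.82 CPM for ENSRNOG00000040287. No light library of 3 or 5 d is then left. The log2 ratio of means became 6.01 in place of 5.50 for the first gene and 6.57 in place of 5.14 for the second. Single libraries moved the second gene's ratio too: it was 4.38 without CHIR99021 3 d ON and 6.02 without wild-type 5 d.

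Of the 9625 IDs whose mean over the 9 libraries was 5 CPM or more, 132 had this order. Among those 132, the gap between the lowest stimulated and highest unstimulated library ranked ENSRNOG00000026053 at 4 and ENSRNOG00000040287 at 23. That gap uses the values behind the choice, so the ranks only describe. By size at 3 d ON, the inducers stood in the order CHIR99021, Wnt3a, light for both genes. For ENSRNOG00000026053 the Wnt3a and light intervals overlapped (36.2 to 47.7 and 28.4 to 43.9 CPM), whereas for ENSRNOG00000040287 no 2 of the 3 did.

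**Figure D1:**
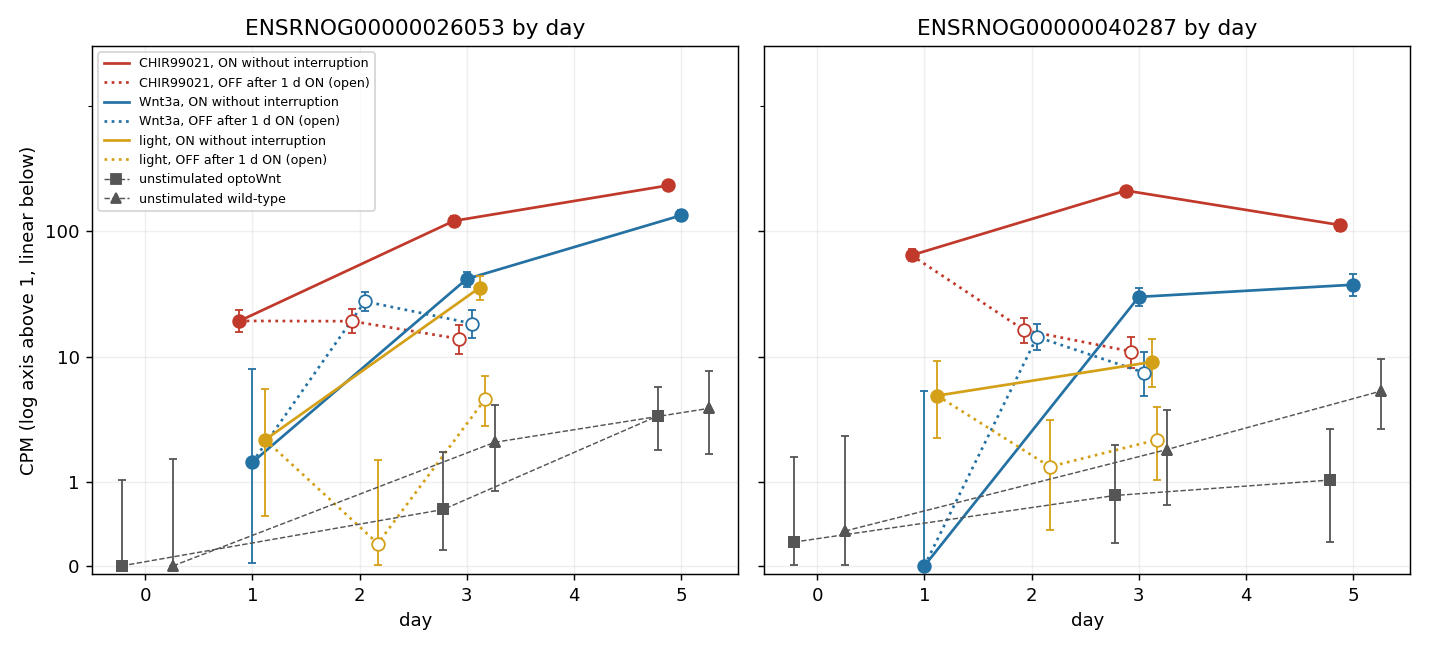
Level of each gene in all 20 libraries by day, in CPM on an axis that is logarithmic above 1 and linear below; points are single libraries, bars are 95% Poisson intervals and points of the same day are shifted sideways. Filled circles are cells kept under the inducer, open circles are cells after withdrawal and grey symbols are unstimulated cells; the sustained courses of CHIR99021 and Wnt3a end at 232 and 134 CPM for ENSRNOG00000026053 and at 112 and 37.5 CPM for ENSRNOG00000040287, while unstimulated cells stay at 5.33 CPM or less.

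Without a stimulus, both genes were close to absent at the start. ENSRNOG00000026053 had 0 reads in both libraries of 0 d, which allows up to 0.507 CPM over both together, 12 reads in those of 3 d (1.23 CPM) and 21 in those of 5 d (3.54 CPM). That limit takes 3 reads as the most that a count of 0 allows, and the observed 5 d level was 6.99-fold above it. ENSRNOG00000040287 had 2, 12 and 15 reads at 0, 3 and 5 d (0.338, 1.23 and 2.53 CPM), and the ratio of 5 d to 0 d was 7.49 with a counting interval of 1.74 to 67.5. The libraries of 3 and 5 d took part in the choice of genes, so these differences carry no test. Between genotypes, ENSRNOG00000040287 at 5 d had 4 reads in optoWnt and 11 in wild-type cells, a ratio of 0.194 (counting interval 0.0451 to 0.655). Each genotype was sequenced once at 5 d, and the wild-type library is among those that stood apart, so this is not shown to be a genotype difference. The intervals of the genotype ratio held 1 at 3 d and for ENSRNOG00000026053 at 5 d.

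The first day of stimulation asks how early the genes were raised, in libraries that played no part in their choice. There was no unstimulated library at 1 d, so the comparison with 0 d spans 1 d in the medium as well as the stimulus. All libraries of 1 d ON were optoWnt, while those of 0 d were optoWnt and wild-type. ENSRNOG00000026053 stood at 19.3 CPM after 1 d of CHIR99021 (99 reads), 1.44 CPM after 1 d of Wnt3a (1 read) and 2.18 CPM after 1 d of light (4 reads), against 0 reads in both unstimulated libraries of 0 d. ENSRNOG00000040287 stood at 64.4 CPM (330 reads), 0 CPM (0 reads) and 4.90 CPM (9 reads) in the same order, against 0.284 CPM in optoWnt and 0.417 CPM in wild-type cells at 0 d, 1 read each. The CHIR99021 library was the high one for both genes. The Wnt3a library was the shallowest of the series. It could have held up to 8.0 CPM of the first gene and 5.3 CPM of the second (upper Poisson limits). Both are below the lower limits of 15.7 and 57.6 CPM under CHIR99021.

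Pooled over inducers, the observed level of ENSRNOG00000026053 after 1 d ON was 26.8-fold above that of 3 reads over both 0 d libraries. By inducer it was 38.1-fold above that limit for CHIR99021 and 4.29-fold for light. The light value rests on 4 reads with an interval of 0.593 to 5.58 CPM, so it is no lower bound. No fold is given for Wnt3a, where both levels are under the limit of 3 reads. For ENSRNOG00000040287 the ratio to 0 d was 190 under CHIR99021 (counting interval 52.3 to 1580) and 14.5 under light (3.0 to 138). So at 1 d the second gene was already at 0.306 of its 3 d level under CHIR99021, and the first at 0.159.

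Neither gene was called at 1 d ON against 0 d (3 libraries against 2). The fitted log2 fold change was 7.47 (SE 2.08, 95% interval 2.90 to 12.05, edgeR adjusted p = 0.085) for ENSRNOG00000026053 and 5.08 (SE 1.30, 2.24 to 7.93, edgeR adjusted p = 0.058) for ENSRNOG00000040287. The first value depends on the prior count, since all 0 d reads were 0, and is no bound. At 0 d the first gene had 0 reads and the second 1 read in each library. Both therefore passed the low-count filter through stimulated libraries alone. The first could only come out higher, so its direction is no result of the test. Of 11691 IDs tested, 389 were called, 3.33%, with 127 higher and 262 lower. Both genes lay near the threshold and crossed it under other settings, among them no filter on low counts (edgeR adjusted p = 6.4e-06 and 6.5e-07). DESeq2 gave an adjusted p of 0.0053 for the first and 0.0036 for the second. In edgeR both passed without light 1 d ON 1 d OFF (0.027 and 0.042) or light 1 d ON 2 d OFF (0.045 and 0.027), and the second without Wnt3a 1 d ON (0.01) or without the libraries that stood apart (0.031). Over the alternatives, edgeR adjusted p ran up to 0.33 for the first and 0.29 for the second. The 389 calls became 48 without wild-type 0 d, 249, 80 and 70 without the CHIR99021, Wnt3a or light library of 1 d ON, 254 without Wnt3a 1 d OFF and 705 without light 2 d OFF.

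After the stimulus was withdrawn, the levels are given by inducer, with 1 library each, and a difference between inducers was not called (edgeR adjusted p = 1 for all 6 interaction values). ENSRNOG00000026053 stood at 19.2 CPM after 1 d OFF and 13.9 CPM after 2 d OFF from CHIR99021, against 19.3 CPM at 1 d ON. From Wnt3a it stood at 27.6 and 18.4 CPM after 1 and 2 d OFF, against 1.44 CPM at 1 d ON, and from light at 0.267 and 4.58 CPM against 2.18 CPM. After 1 d of Wnt3a this gene was higher in both later libraries without the ligand than in the library taken at the end of the exposure, by ratios of 19.2 (counting interval 3.39 to 764) and 12.8 (2.21 to 513), which rest on 1 read in the library of 1 d ON. From CHIR99021 the level after 1 d OFF was 0.996 of that at 1 d ON (0.738 to 1.34) and after 2 d OFF 0.718 (0.514 to 0.997).

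ENSRNOG00000040287 stood at 16.3 and 11 CPM after 1 and 2 d OFF from CHIR99021, against 64.4 CPM at 1 d ON, which is 0.254 (0.194 to 0.328) and 0.17 (0.123 to 0.23) of that level. From Wnt3a it stood at 14.4 and 7.46 CPM after 1 and 2 d OFF. The observed levels were 3.34-fold and 1.73-fold above the limit of 3 reads in the library of 1 d ON, which had 0 reads. These folds leave out the counting error of the withdrawn libraries, so they are no lower bounds. The interval at 2 d OFF (4.87 to 10.9 CPM) overlapped that at 1 d ON (0 to 5.3 CPM). From light it stood at 1.33 and 2.18 CPM against 4.90 CPM at 1 d ON, with 5, 10 and 9 reads. Under CHIR99021, then, this gene was lower 1 d after removal by more than counting error while ENSRNOG00000026053 was not. Between 1 and 2 d OFF both genes were lower on the later day after Wnt3a, at 0.666 (0.487 to 0.902) for the first and 0.519 (0.318 to 0.822) for the second. After CHIR99021 these ratios were 0.721 (0.512 to 1.01) and 0.671 (0.458 to 0.977). Light went the other way, at 17.2 (2.76 to 710, 21 reads against 1) for the first gene and 1.63 (0.509 to 6.09) for the second.

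Averaged over inducers, no change on withdrawal was called. For 1 d OFF against 1 d ON (3 libraries each) the log2 fold change was 0.58 (SE 0.84, 95% interval -1.27 to 2.42, edgeR adjusted p = 1) for ENSRNOG00000026053 and -0.82 (SE 0.81, -2.58 to 0.95, edgeR adjusted p = 1) for ENSRNOG00000040287. No ID was called (0%), with 309 at an unadjusted p under 0.05 and 15 called by DESeq2. For 2 d OFF against 1 d ON the values were 0.81 (SE 0.84, -1.04 to 2.67, edgeR adjusted p = 0.68) and -1.27 (SE 0.82, -3.05 to 0.51, edgeR adjusted p = 0.47), with 7 IDs called (0.0599%), all higher, which became 1032 without light 2 d OFF and 0 or 1 without any one of the 3 libraries of 1 d ON or the withdrawn libraries of CHIR99021 and Wnt3a. An exact two-sided permutation test within inducers set the 6 withdrawn libraries against the 3 of 1 d ON on the log2(CPM + 1) scale. It gave means of 3.36 ± 1.68 withdrawn and 2.43 ± 1.67 at 1 d ON for the first gene (SD, n = 6 and 3, exact p = 0.407) and 2.94 ± 1.22 and 2.86 ± 3.03 for the second (exact p = 0.926), where the smallest p its 27 assignments allow is 0.037. The second gene's difference depended on the pseudocount, at 0.07 with 1 CPM, 0.31 with 0.5 CPM and 0.995 with 0.1 CPM (exact p = 0.852 and 0.704 for the last 2). The sign of these averages depended on Wnt3a: without it the difference was -0.24 for the first gene and -1.65 for the second. Day and withdrawal change together in all of these comparisons.

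At day 3, cells withdrawn for 2 d lay between cells kept under the inducer and unstimulated cells. ENSRNOG00000026053 stood at 13.9 CPM (CHIR99021), 18.4 CPM (Wnt3a) and 4.58 CPM (light) after 2 d OFF, against 121, 41.7 and 35.5 CPM in the same order at 3 d ON. These are 0.115 (counting interval 0.0866 to 0.149), 0.441 (0.328 to 0.586) and 0.129 (0.0759 to 0.21) of the sustained levels. The withdrawn levels were 11.3-fold (6.04 to 23.1), 15.0-fold (8.01 to 30.5) and 3.73-fold (1.75 to 8.32) above the 2 unstimulated libraries of day 3. The withdrawn libraries of this gene overlapped neither of the other sets. That 3 d ON lay above unstimulated cells was fixed by the choice of genes. The share of all IDs with withdrawn libraries placed in this way was not computed.

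ENSRNOG00000040287 stood at 11 CPM (CHIR99021), 7.46 CPM (Wnt3a) and 2.18 CPM (light) after 2 d OFF, against 211, 30.0 and 9.09 CPM in the same order at 3 d ON. The withdrawn levels were 0.0521 (0.0383 to 0.0694), 0.249 (0.157 to 0.379) and 0.24 (0.101 to 0.528) of the sustained ones. Against unstimulated day 3 they were 8.94-fold (4.69 to 18.5) and 6.08-fold (2.96 to 13.2) higher for CHIR99021 and Wnt3a, and 1.78-fold for light, with an interval that holds 1 (0.687 to 4.49). Here 1 withdrawn library, CHIR99021, stood above the light library of 3 d ON. The 3 d ON and unstimulated libraries took part in the choice of genes, so these contrasts carry no test, and the CHIR99021 and Wnt3a withdrawn libraries and light 3 d ON are among the 6 that stood apart. The part of that in the values was not tested.

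**Figure D2:**
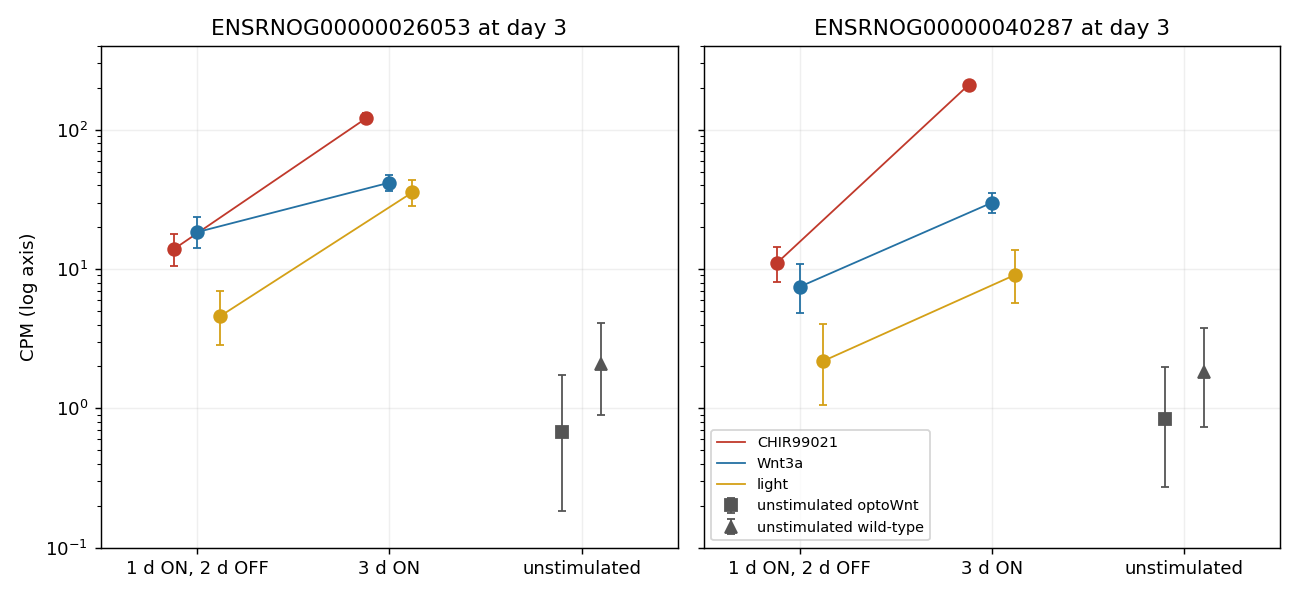
Levels at day 3 in CPM on a log axis, for cells given 1 d of inducer and 2 d without, cells kept under the inducer for 3 d, and unstimulated cells; each point is 1 library with its 95% Poisson interval and lines join libraries of the same inducer. For both genes every inducer's withdrawn library is below its sustained one, and for ENSRNOG00000026053 all withdrawn libraries (4.58 to 18.4 CPM) are above the unstimulated ones (0.674 and 2.08 CPM). The share of all IDs with these orders was not computed.

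Withdrawn cells of day 3 were also set against 0 d, where neither arm took part in the choice. ENSRNOG00000026053 was higher after 1 d ON 2 d OFF than at 0 d (3 libraries against 2) and was called, at a fitted log2 fold change of 8.29 (SE 1.93, 95% interval 4.03 to 12.54, edgeR adjusted p = 0.027). The size of this value depends on the prior count, since all 0 d reads were 0, and neither it nor its interval is a bound. With no read at 0 d, this gene passed the low-count filter through stimulated libraries alone and could only come out higher. The direction of its call was therefore fixed in advance. With 147 reads against 0, the observed level over all inducers was 23.1-fold above that of 3 reads over both 0 d libraries. ENSRNOG00000040287 was not called, at 3.81 (SE 1.32, 0.94 to 6.68, edgeR adjusted p = 0.10) and a ratio of pooled levels of 20.0 (counting interval 5.38 to 168). In this comparison 861 of 11691 IDs were called, 7.36%, and it spans 3 d in the medium as well as the stimulus. Unstimulated cells of day 3 had 12 reads of each gene. The 861 calls became 224 without wild-type 0 d, 507 without optoWnt 0 d, and 285, 415 and 1306 without the CHIR99021, Wnt3a or light library of 2 d OFF. For ENSRNOG00000026053 the adjusted p in edgeR missed the threshold when wild-type 0 d (0.092) was left out, and likewise for optoWnt 0 d (0.098), CHIR99021 2 d OFF (0.051) and Wnt3a 2 d OFF (0.065). It also missed it with a genotype term (0.10) and without the inducer term (0.075). The call held without the 3 libraries of this fit that stood apart (edgeR adjusted p = 0.0085, log2 fold change 9.88), which leaves 1 library, light, against 1, optoWnt 0 d, and the fitted value was 7.43 without light 2 d OFF. ENSRNOG00000040287 passed without Wnt3a 1 d ON (edgeR adjusted p = 0.02), with no filter (0.00052) and in DESeq2 (0.028), and its adjusted p ran up to 0.29 over the alternatives.

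Inducers were compared over the 3 matched profiles outside the choice, 1 d ON, 1 d OFF and 2 d OFF, with 3 libraries each. CHIR99021 stood above light in every profile for both genes. ENSRNOG00000026053 had 19.3, 19.2 and 13.9 CPM with CHIR99021 in that order of profiles, against 2.18, 0.267 and 4.58 CPM with light, and ENSRNOG00000040287 had 64.4, 16.3 and 11 CPM against 4.90, 1.33 and 2.18 CPM. The log2 fold changes were 2.98 (SE 0.86, 95% interval 1.09 to 4.87, edgeR adjusted p = 0.26) and 3.23 (SE 0.81, 1.47 to 5.00, edgeR adjusted p = 0.20), so neither was called, where 2 of 11691 IDs were (0.0171%). DESeq2 called both (adjusted p = 0.021 and 0.0048), as did edgeR without the libraries that stood apart (0.013 and 0.015). With 1 library left out at a time neither gene was called: the log2 fold changes were 2.16 to 4.17 and 2.17 to 3.67, with edgeR adjusted p of 0.17 to 0.80 and 0.062 to 0.81.

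Wnt3a against light gave log2 fold changes of 2.74 (SE 0.88, 95% interval 0.81 to 4.68, edgeR adjusted p = 0.46) for ENSRNOG00000026053 and 1.87 (SE 0.84, 0.05 to 3.70, edgeR adjusted p = 0.50) for ENSRNOG00000040287. Wnt3a was the higher in both withdrawn profiles and the lower at 1 d ON for both genes, there with counting intervals that overlap. CHIR99021 against Wnt3a gave 0.24 (SE 0.76, -1.44 to 1.92, edgeR adjusted p = 1) and 1.36 (SE 0.77, -0.32 to 3.04, edgeR adjusted p = 1). The intervals reach a 3.78-fold higher level with CHIR99021 for the first gene and an 8.22-fold one for the second, so a difference of that size is not shown to be absent. For these 2 contrasts 0 of 11691 IDs were called by edgeR, with 1156 and 156 at an unadjusted p under 0.05 and 74 and 12 called by DESeq2.

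**Figure D3:**
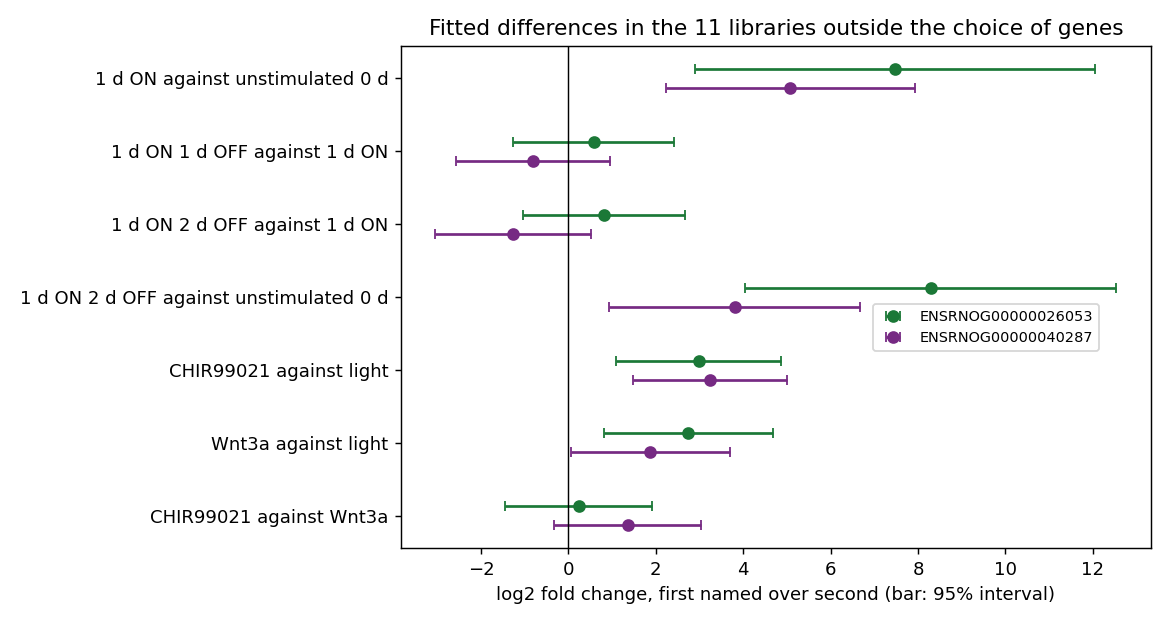
Fitted log2 fold changes of both genes in the 7 tested comparisons, the first named group over the second, with 95% intervals, from 1 edgeR fit to 11 libraries. Both genes lie to the right of 0 against 0 d and for either CHIR99021 or Wnt3a against light, and the intervals of both withdrawal comparisons with 1 d ON and of CHIR99021 against Wnt3a hold 0. Only ENSRNOG00000026053 at 1 d ON 2 d OFF against 0 d was called after adjustment. Its values against 0 d depend on the prior count and are no bounds. At 1 d ON, Wnt3a was below light for both genes.

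The balance of the 2 genes is given by library, with intervals that cover counting error alone and treat reads as independent molecules, which amplified reads are not. The share of their joint reads that came from ENSRNOG00000026053 was 23.1% at 1 d of CHIR99021 (exact binomial 95% interval 19.2 to 27.4), 36.5% at 3 d (34.0 to 39.0) and 67.5% at 5 d (64.8 to 70.0). Under Wnt3a it was 58.1% at 3 d (52.8 to 63.3) and 78.1% at 5 d (74.1 to 81.8), and under light 79.6% at 3 d (70.8 to 86.8). Among the 3 d ON libraries, CHIR99021 was thus the one in which ENSRNOG00000040287 gave most of the joint reads. After withdrawal from CHIR99021 the share was 54.1% at 1 d OFF (46.0 to 62) and 55.9% at 2 d OFF (46.1 to 65.3), and after Wnt3a 65.7% (58.9 to 72.1) and 71.1% (60.6 to 80.2). The share is given to compare libraries and is not a ratio of molecules, since reads of a gene may depend on its 3′ end. Unstimulated libraries of 3 and 5 d had 9 to 19 joint reads each, and their intervals were wide, such as 13.7 to 78.8% in optoWnt and 26.6 to 78.7% in wild-type cells at 3 d.

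**Figure D4:**
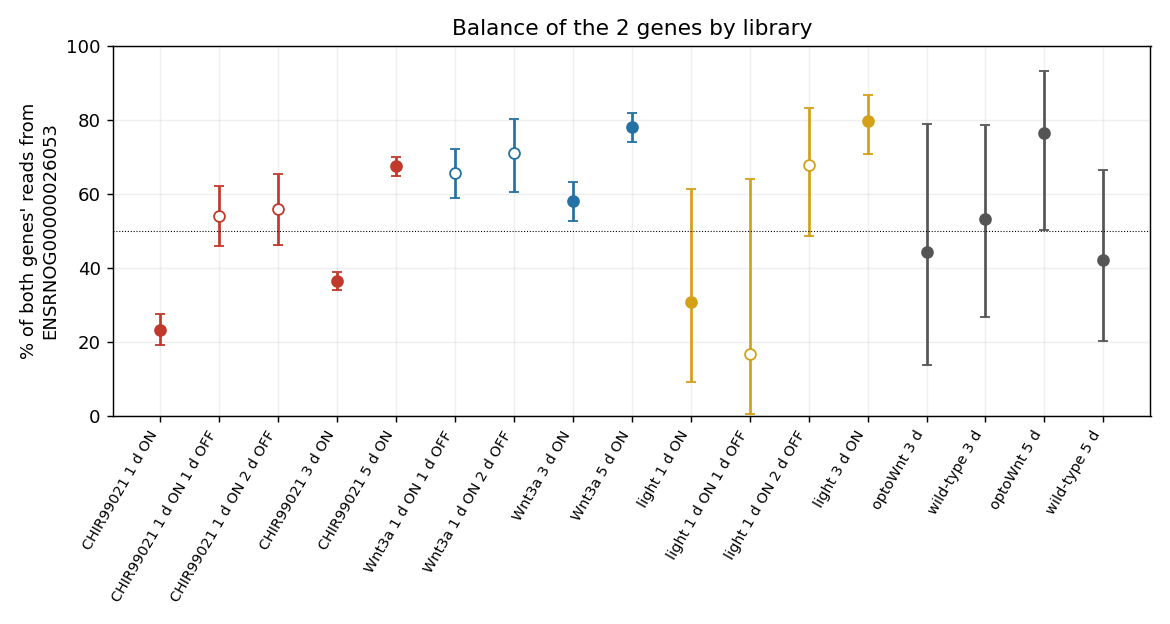
Share of the joint reads of both genes that came from ENSRNOG00000026053, in percent, for the 17 libraries with at least 5 such reads; bars are exact binomial 95% intervals, open circles are withdrawn libraries, and colours mark CHIR99021 (red), Wnt3a (blue), light (yellow) and no inducer (grey). Under CHIR99021 ON the share is 23.1, 36.5 and 67.5% at 1, 3 and 5 d, and the withdrawn libraries sit at 54.1 and 55.9%.

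Over all 20 libraries Pearson's r of log2(CPM + 1) between the 2 genes was 0.92, and 0.87 over the 11 libraries outside the choice. Of the 9583 IDs with a mean of at least 5 CPM, each was the second most alike to the other. The most alike to both was ENSRNOG00000006784, with r = 0.95 with ENSRNOG00000026053 and 0.93 with ENSRNOG00000040287 (0.90 and 0.91 over the 11 libraries), where the median ID had 0.00 and 0.02. These values describe libraries that share inducers and days, and the choice of genes raises them. ENSRNOG00000006784 was itself picked by its r over all 20 libraries, which include the 11. Its r over the 11 is therefore no separate check, and the medians are over all 20. ENSRNOG00000006784 had 191 and 236 CPM after 3 and 5 d of CHIR99021, 29.8 and 66.1 CPM after 3 and 5 d of Wnt3a and 28.5 CPM after 3 d of light, against 1.56 to 6.47 CPM in unstimulated cells of 3 and 5 d. At 1 d it stood at 21.7 CPM with CHIR99021, 1.44 CPM with Wnt3a and 3.81 CPM with light, against 1.25 and 2.56 CPM at 0 d. After 1 d OFF it stood at 21.0 CPM from CHIR99021, 13.2 CPM from Wnt3a and 1.33 CPM from light, and after 2 d OFF at 25.1, 9.76 and 2.62 CPM in the same order. Unlike both genes it was not lower after 2 d OFF from CHIR99021 than at 1 d ON. No counting interval was made for this ID, and that of ENSRNOG00000026053 for the same ratio reached 0.997. The CHIR99021 library of 2 d OFF is also among those that stood apart.

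By mean level over profiles, ENSRNOG00000026053 stood highest at 5 d ON (183 ± 69.0 CPM, SD, n = 2), then 3 d ON (66.1 ± 47.7, n = 3), 1 d OFF (15.7 ± 14.0, n = 3), 2 d OFF (12.3 ± 7.03, n = 3), 1 d ON (7.64 ± 10.1, n = 3) and unstimulated 5, 3 and 0 d (3.62 ± 0.362, 1.38 ± 0.994 and 0 CPM, n = 2 each). The ranges of 1 d OFF, 2 d OFF, 1 d ON and unstimulated 5 d overlapped each with the next. ENSRNOG00000040287 stood highest at 3 d ON (83.2 ± 111 CPM, SD, n = 3), then 5 d ON (74.6 ± 52.5, n = 2), 1 d ON (23.1 ± 35.8, n = 3), 1 d OFF (10.7 ± 8.16, n = 3), 2 d OFF (6.87 ± 4.42, n = 3) and unstimulated 5, 3 and 0 d (3.18 ± 3.04, 1.33 ± 0.691 and 0.351 ± 0.0941, n = 2 each). There, only unstimulated 3 d and 0 d, among neighbours in this order, had ranges that did not overlap.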

How the data were processed

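The authors deposited whole-number counts of reads per Ensembl gene ID and well, with no normalization, from QuantSeq 3′ end libraries, per the labels. The submitters' processing notes name Bowtie2, Subread, featureCounts and the build Rnor_6.0; the sources used here give no versions, strand setting or handling of multiply mapped reads, so reads of near-identical or overlapping genes could be misassigned. Wells were tied to libraries through the labels, and all 20 had a library. No ID matched a symbol (0), so the planned pathway and marker lists were not run and the cell type could not be checked against markers.

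The members and lists were chosen with earlier results of these data known. The named genes are the 2 members and, for each, the 2 IDs with the highest r over 20 libraries. One edgeR 4.0.16 quasi-likelihood fit (R 4.3.3, TMM scaling, filterByExpr by profile, 11691 IDs, Benjamini-Hochberg adjustment, called under 0.05) covered the 11 libraries outside the choice, with profile and inducer as terms (6 coefficients, 5 residual degrees of freedom, common biological coefficient of variation 0.362). Inducer terms sum to 0, so that each profile estimate averages the inducers. The code was tested on simulated counts. DESeq2 1.42.0, other scaling, filters, terms and libraries were alternatives. The labels do not say whether libraries came from separate cultures, so p-values measure the spread between these libraries, which may be technical and includes responses that differ between inducers. Chi-square per degree of freedom was 5.94 or more in all 16 pairs of libraries within profiles, above sampling noise.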

Additional observations from a re-analysis of the deposited data

Results flagged for a closer look

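The change after withdrawal went in opposite directions between inducers in every library of 3 contrasts. For ENSRNOG00000026053 both Wnt3a libraries of 1 and 2 d OFF (27.6 and 18.4 CPM) were above 1 d ON (1.44 CPM), and both CHIR99021 ones (19.2 and 13.9 CPM) below it (19.3 CPM), the first by less than counting error. An interaction of inducer and withdrawal, added after the values were seen and fitted to the 9 libraries given 1 d of stimulus (3 residual degrees of freedom), put the Wnt3a minus CHIR99021 difference at a log2 value of 4.13 (SE 1.94, 95% interval -0.29 to 8.55, edgeR adjusted p = 1). For ENSRNOG00000040287 both Wnt3a libraries (14.4 and 7.46 CPM) were above 1 d ON (0 reads), while both CHIR99021 ones (16.3 and 11 CPM) were below 64.4 CPM and both light ones (1.33 and 2.18 CPM) below 4.90 CPM. The fitted differences were 10.53 (SE 2.24, 95% interval 5.44 to 15.63) for Wnt3a minus CHIR99021 and 9.64 (SE 2.5, 3.94 to 15.34) for Wnt3a minus light, with an edgeR adjusted p of 1 for both. Since the interaction was added because the reversal had been seen, it gives no independent support. The last 2 values and their intervals depend on the prior count, because the Wnt3a library of 1 d ON had no read, and they are no bounds. No ID of 11238 was called for either of these 2 contrasts by edgeR. That Wnt3a library is the shallowest of the series, at 696463 reads, and its part in the reversal was not tested.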

How the results depend on the processing

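With relative log expression factors in place of TMM, both genes kept their side of the threshold. With no low-count filter, log2 fold changes that became called were 7.48 and 5.14 (1 d ON against 0 d), 3.02 and 3.27 (CHIR99021 against light) for the first and second gene, 3.84 (2 d OFF against 0 d, ENSRNOG00000040287) and 2.76 (Wnt3a against light, ENSRNOG00000026053). In DESeq2 they were 6.40 and 5.10, 3.06 and 3.26, and 3.97 (2 d OFF against 0 d, ENSRNOG00000040287). With all 20 libraries ENSRNOG00000040287 stood at 3.63 for CHIR99021 against light, past the threshold, but 9 of those libraries chose the genes, so that this supports nothing. Without the libraries that stood apart (chosen after seeing the data) it was called at 1 d ON against 0 d (5.39) and, with ENSRNOG00000026053, for CHIR99021 against light (3.71 and 4.36). The ENSRNOG00000026053 call for 2 d OFF against 0 d was lost with a genotype term (8.28) and without the inducer term (8.45).

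Counts of called IDs moved as well. In the order of the 7 comparisons (1 d ON against 0 d, 1 d OFF against 1 d ON, 2 d OFF against 1 d ON, 2 d OFF against 0 d, CHIR99021 against light, Wnt3a against light, CHIR99021 against Wnt3a) they were 389, 0, 7, 861, 2, 0 and 0; with no filter 908, 14, 548, 1366, 357, 194 and 12; and by DESeq2 742, 15, 354, 1343, 186, 74 and 12. With a genotype term 51, 216 and 7 were called for 1 d ON against 0 d, 2 d OFF against 0 d and CHIR99021 against light; with all 20 libraries 70, 0, 424, 170, 1 and 4 for all but the second; without the inducer term 0 for the third. Without the libraries that stood apart 7, 12, 384, 86, 10 and 2 were called for the second to the last.

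Leaving out 1 library gave 48 to 705 calls for 1 d ON against 0 d, 0 to 1032 for 2 d OFF against 1 d ON, 224 to 1306 for 2 d OFF against 0 d and 0 to 10 for CHIR99021 against light. Log2 fold changes of ENSRNOG00000026053 ran from 6.33 to 8.25 (1 d ON against 0 d), -0.18 to 1.70 (1 d OFF against 1 d ON), 7.43 to 8.77 (2 d OFF against 0 d) and -0.395 to 1.38 (CHIR99021 against Wnt3a). Those of ENSRNOG00000040287 ran from 3.74 to 5.87, -1.68 to 0.57, -2.04 to 0.08 (2 d OFF against 1 d ON) and 3.46 to 4.27 (2 d OFF against 0 d). Signs turned for 1 d OFF against 1 d ON of ENSRNOG00000026053 without Wnt3a 1 d ON (-0.18) or Wnt3a 1 d OFF (-0.16), for both withdrawal contrasts of ENSRNOG00000040287 without CHIR99021 1 d ON (0.57 and 0.081), and for CHIR99021 against Wnt3a of ENSRNOG00000026053 without CHIR99021 1 d ON (-0.22) or Wnt3a 1 d ON (-0.395); the cause was not tested. With 1 inducer left out, the permutation differences ran from -0.24 to 1.52 and from -1.65 to 1.20. Arms left with 1 library are assumed to vary like the others. No paired analysis was possible because the labels give no replicate numbers to pair by. Libraries were matched by inducer instead, as a term of the fit and within the permutation test. Depth limits the Wnt3a 1 d ON library most, where 3 reads correspond to 4.31 CPM.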
